A study of Mus musculus with 8 samples.

Results

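The small leucine-rich proteoglycans are a family of secreted matrix proteins, and 10 of their genes were followed here: Dcn, Bgn, Aspn, Fmod, Lum, Prelp, Omd, Kera, Epyc and Ogn. They were chosen by gene symbol, and all 10 were found among the 51822 gene symbols used. RNA sequencing had been performed on mouse osteoblastic cells treated with locamidazole (LAMZ), an aminoindazole derivative, to see how the drug alters their gene expression. The sample labels name MC3T3-E1, an established osteoblastic line from mouse calvaria, whereas the series title and the methods speak of calvarial cells. The 4 groups were cells with the vehicle DMSO (control) at day 7, cells with 1 μM LAMZ at day 7, control cells at day 14 and cells with 1 μM LAMZ at day 14, with 2 libraries in each group. All of them were grown in α-MEM with serum, ascorbic acid, dexamethasone and β-glycerophosphate, a medium that drives osteoblast differentiation, so no group shows cells outside this medium.

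In the file of day 7 LAMZ replicate 1, the heading of the value column does not name LAMZ, unlike in the other LAMZ files, and this library was grouped by its label, on which every day 7 LAMZ value below rests. Its summed RPKM of 14 macrophage markers, 9.43, lay near the 7.65 of day 7 LAMZ replicate 2 and far from the 466 and 607 of the day 7 control libraries. The deposited values are RPKM (reads scaled to gene length and sequencing depth), so that levels can be compared between genes. Whole reads recovered from these values gave 3463538 to 5832101 mapped reads per library, of which 13362 to 28528 lay on the 10 family genes. A gene was tested by limma, on log2(RPKM + 1), if 2 or more of the 8 libraries reached an RPKM of 1, and adding 1 understates the change of low genes. Of the 10 family genes, 9 passed this filter, and Kera did not. An adjusted p (Benjamini-Hochberg over all 12514 genes tested) under 0.05 counted as a change. Nothing in the labels says that replicates came from separate cultures, so p-values measure only the spread between these samples. Where 1 library is left out, the lone library of its group is assumed to vary like the other groups. In bulk RNA, fewer cells that express a gene and less of its RNA per cell cannot be told apart.

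Each family member has a core of leucine-rich repeats, most carry chondroitin, dermatan or keratan sulfate chains, and many bind collagen fibrils and set their width and spacing. Class I (Dcn, Bgn and Aspn), class II (Fmod, Lum, Prelp, Omd and Kera) and class III (Epyc and Ogn) differ in gene structure and in their chains. Several members are abundant in bone and other collagen-rich tissues, where they also bind growth factors of the TGF-β family and accompany matrix mineralization.

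Over the 8 libraries, Fmod had the highest mean level of the family at an RPKM of 356, followed by Bgn at 315, Lum at 294, Prelp at 125, Aspn at 114, Ogn at 87.2, Dcn at 84.1, Omd at 15.6 and Epyc at 10.3. The ranges over the libraries fall into 3 levels. Values of Fmod, Bgn and Lum ran from 236 to 428, those of Prelp, Aspn, Ogn and Dcn from 45.2 to 171, and those of Omd and Epyc from 7.78 to 27.5. Prelp and Aspn were each above Ogn and above Dcn in all 8 libraries, while every other pair within a level changed its order between libraries. Fmod ranked 84 among all gene symbols by mean RPKM, while Epyc ranked 3012. The lowest values rest on few reads, 63 to 264 per library for Omd and 77 to 216 for Epyc, against 2933 to 7868 for Fmod. For Omd in its lowest library, the RPKM of 8.09 had a 95% exact Poisson interval of 6.21 to 10.3, which covers counting error only.

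Kera, the keratan sulfate member best known from the cornea, was close to absent. It had an RPKM of 0 in 6 libraries, and 1 read in each of the 2 day 14 control libraries, an RPKM of 0.0817 and 0.0970. In the libraries at 0, a count of 0 allows an RPKM of up to 0.226 to 0.380 (3 reads), so a 0 does not exclude a level under this.

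**Figure D1:**
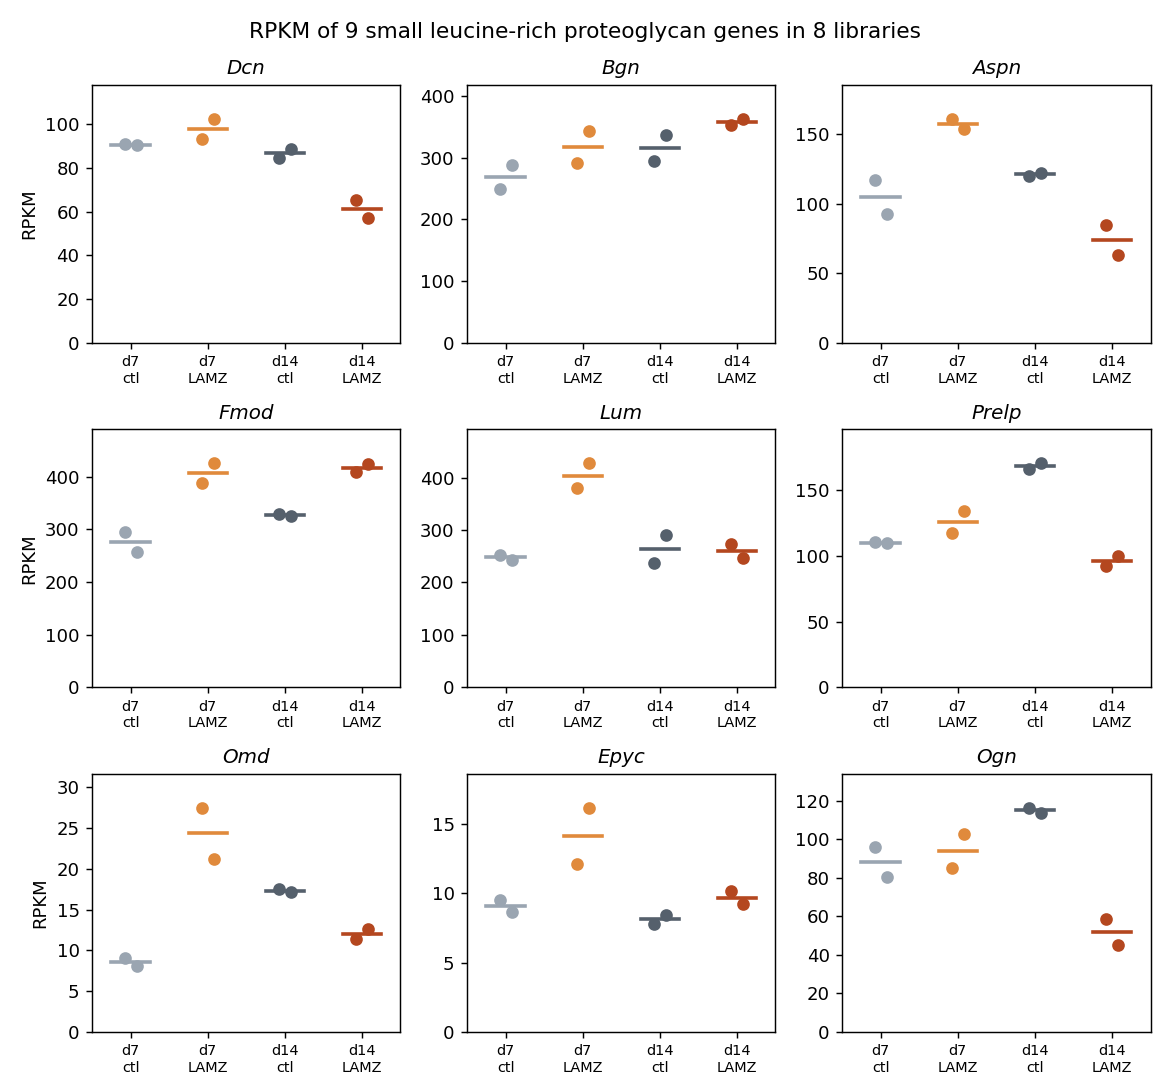
RPKM (y axis, from 0) of the 9 tested family genes in the 4 groups (x axis, d for day and ctl for control), with a point for each of the 2 libraries and a line at the group mean. The day 14 LAMZ points of Dcn, Aspn, Prelp and Ogn lie below all points of the other 3 groups, while those of Omd lie between the day 7 and day 14 control points.

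Where the genes lie differs between members. On GRCm38, by the GENCODE M21 annotation, Aspn (chromosome 13, 49544443 to 49567565), Omd (49582462 to 49592822) and Ogn (49608046 to 49624501) follow each other on the plus strand, with gaps of 14.9 kb and 15.2 kb. A second cluster on chromosome 10 holds Dcn (97479609 to 97518143), Lum (97565128 to 97572703), Kera (97606879 to 97613692) and Epyc (97644068 to 97682454), also on the plus strand. Fmod (134037254 to 134048277, plus strand) and Prelp (133910304 to 133921414, minus strand) lie on chromosome 1, and Bgn (73483602 to 73495933, plus strand) lies on chromosome X.

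The promoters of the 3 chromosome 13 neighbours are shown because these genes turned out to have the 3 most negative differences between the effects of LAMZ on the 2 days, and that of Bgn because its fold changes were small throughout. The sequences are from RefSeq on GRCm38.p6 and hold the 250 bases before the start annotated there. They run 5′ to 3′ on the plus strand, which is the strand of all 4 genes. The Ogn and Bgn windows end short of the GENCODE starts given above, at 49608014 beside 49608046 and at 73483600 beside 73483602. Distances below are to the end of each window. The positions are chr13:49544193-49544442 for Aspn, chr13:49582212-49582461 for Omd, chr13:49607765-49608014 for Ogn and chrX:73483351-73483600 for Bgn, and no annotated exon overlaps these windows. Capitals mark matches on either strand to the TATA box core (TATAAA), the core of the RUNX site (TGTGGT, RUNX2 being the master factor of osteoblasts) and the GC box core (GGGCGG).
Aspn: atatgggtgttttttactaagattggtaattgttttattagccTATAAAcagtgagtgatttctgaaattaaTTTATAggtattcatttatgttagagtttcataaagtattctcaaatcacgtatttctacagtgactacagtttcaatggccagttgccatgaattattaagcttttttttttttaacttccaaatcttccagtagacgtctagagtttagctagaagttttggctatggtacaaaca
Omd: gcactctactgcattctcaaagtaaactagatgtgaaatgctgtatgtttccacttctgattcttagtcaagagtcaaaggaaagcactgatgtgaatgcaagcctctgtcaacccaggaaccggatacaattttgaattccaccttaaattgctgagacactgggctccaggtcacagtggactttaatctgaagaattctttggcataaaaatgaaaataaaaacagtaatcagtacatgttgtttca
Ogn: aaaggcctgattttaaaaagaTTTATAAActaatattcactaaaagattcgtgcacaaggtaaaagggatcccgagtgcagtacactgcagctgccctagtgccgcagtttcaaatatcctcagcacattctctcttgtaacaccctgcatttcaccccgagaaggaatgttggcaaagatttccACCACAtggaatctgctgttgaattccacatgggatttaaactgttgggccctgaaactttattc
Bgn: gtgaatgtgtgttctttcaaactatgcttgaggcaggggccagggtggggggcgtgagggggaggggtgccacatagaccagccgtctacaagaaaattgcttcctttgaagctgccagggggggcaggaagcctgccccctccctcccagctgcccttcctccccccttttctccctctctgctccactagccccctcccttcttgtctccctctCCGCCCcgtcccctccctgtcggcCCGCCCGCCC
The Aspn window is 30.0% G and C, with TATAAA on the gene's strand at 207 to 202 bases before the start and on the other strand at 178 to 173. The Omd window (38.4% G and C) holds none of the 3 motifs. The Ogn window (42.0%) holds TATAAA on both strands in overlapping positions, 227 to 222 and 229 to 224 bases before the start, and TGTGGT on the other strand at 65 to 60. The Bgn window (64.4%) holds GGGCGG on the other strand at 34 to 29, 10 to 5 and 6 to 1, the last 2 of which overlap. Among the 250-base windows of all 32851 promoters in the table, 12.4% hold TATAAA, 14.0% hold TGTGGT and 32.7% hold GGGCGG. In all, 8 of the 10 members had a promoter in the table (9 windows, since Epyc has 2), and the windows of Fmod, Prelp, Kera and Epyc hold none of the 3 motifs. Dcn and Lum had no entry.

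At day 7, LAMZ raised 4 members (Omd, Lum, Epyc and Fmod) and lowered 0 of the 9 tested by the limma threshold, whereas 12.8% of all tested genes changed, 4.35% higher and 8.49% lower. At day 14, LAMZ raised 0 and lowered 5 members (Ogn, Prelp, Aspn, Dcn and Omd), against 23.0% of all tested genes changed, 6.96% higher and 16.0% lower. The median log2 fold change of the 9 members was 0.56 at day 7 and −0.50 at day 14, beside medians of −0.08 and −0.15 over all tested genes. From day 7 to day 14, 2 members rose in control cells (Omd and Prelp), where 4.86% of all genes changed (2.46% higher, 2.40% lower), and the members' median was 0.23 beside −0.05. With libraries rescaled to the same sum, 972 genes were called higher and 163 lower over this time, and 4 members higher. In LAMZ-treated cells, 5 members fell from day 7 to day 14 (Aspn, Omd, Ogn, Dcn and Lum), where 14.4% of all genes changed (5.10% higher, 9.26% lower), and the median was −0.63 beside −0.11. With libraries rescaled to the same sum, this balance turned, at 966 genes higher and 556 lower, with 4 members lower. The change of the LAMZ effect between the days, tested as an interaction, passed the threshold for 1 member, Omd, which was lower at day 14, whereas 0.623% of all genes passed it, 0.312% higher and 0.312% lower. At an unadjusted p under 0.05, 6 of the 9 members passed the interaction test, beside 2061 of the 12514 genes tested, and the log2 difference was below 0 for all 9 as deposited, with a median of −0.71 beside −0.07, but centring on the median gene turned that of Bgn to 0.02. These 5 comparisons share their groups of libraries, and each member's values are given side by side below.

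**Figure D2:**
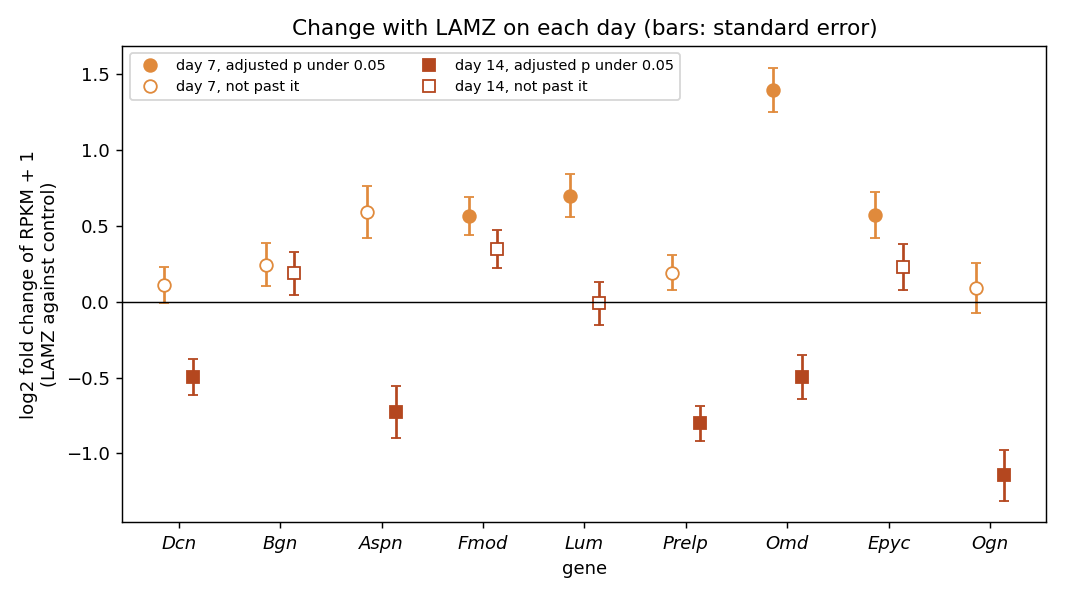
Log2 fold change of RPKM + 1 with LAMZ (y axis, bars: standard error from the 4-group fit) for the 9 tested family genes (x axis), with circles for day 7 and squares for day 14 and filled symbols where the limma adjusted p was under 0.05. At day 7 all 9 estimates lie above 0, from 0.09 to 1.39, but 4 of them (Dcn, Bgn, Prelp and Ogn) fall below 0 when libraries are rescaled to the same sum, and at day 14 the estimates run from −1.14 to 0.35.

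In class I, Dcn (decorin), which binds type I collagen and TGF-β, had an RPKM of 90.8 and 90.5 in control and 93.3 and 103 with LAMZ at day 7, and of 84.4 and 88.8 in control and 65.3 and 57.1 with LAMZ at day 14. The 6 libraries outside day 14 LAMZ lay between 84.4 and 103, and the 2 of day 14 LAMZ lay below all of them. The fall with LAMZ at day 14 was −0.50 log2 (standard error 0.12, limma adjusted p = 0.0196, lower in 2 of 2 libraries), and the fall from day 7 to day 14 in LAMZ-treated cells was −0.67 (limma adjusted p = 0.00985). At day 7 the LAMZ effect on Dcn was 0.11 (limma adjusted p = 0.599), or −0.19 with libraries rescaled to the same sum. The day 14 call was lost without day 14 control replicate 1, control replicate 2 or LAMZ replicate 2 (adjusted p 0.0575 to 0.129) and with median centring (0.0765). The day call in LAMZ-treated cells was lost without day 7 LAMZ replicate 2 or day 14 LAMZ replicate 2 (0.0788 and 0.0864).

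Bgn (biglycan), whose loss in mice lowers bone mass, had an RPKM of 249 and 288 in control and 292 and 344 with LAMZ at day 7, and of 295 and 338 in control and 354 and 364 with LAMZ at day 14. LAMZ libraries lay above the control libraries of the same day, but on each day the group means differed by no more than the replicates of 1 of the groups did. The estimates were 0.24 at day 7 (limma adjusted p = 0.313) and 0.19 at day 14 (0.383), and both turned below 0, to −0.06 and −0.18, with libraries rescaled to the same sum. Over the 18 alternative settings, Bgn passed the threshold in 0 on either day, so no change of this gene was detectable here, and the 95% interval of the day 14 effect ran from −0.14 to 0.51. Its RPKM implies a gene length of 3563 bases, shorter than the 6099 annotated, so its level relative to the other members depends on the gene model used.

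Aspn (asporin), which has a run of aspartate residues at its amino end and binds collagen and calcium, had an RPKM of 117 and 92.7 in control and 161 and 154 with LAMZ at day 7. At day 14 it had 120.1 and 122 in control and 84.3 and 62.8 in LAMZ-treated cells. The LAMZ libraries were thus the highest of all at day 7 and the lowest at day 14, without overlap with the control libraries on either day. At day 14, Aspn fell by 0.73 log2 (standard error 0.17, limma adjusted p = 0.0181, lower in 2 of 2 libraries), while the day 7 effect of 0.59 missed the threshold (limma adjusted p = 0.0588) and passed it in 4 of the 18 alternatives. In LAMZ-treated cells it fell by 1.10 from day 7 to day 14 (limma adjusted p = 0.00616), a call made in all 18 alternative settings. In control cells the estimate over time was above 0, at 0.22, and missed the threshold (limma adjusted p = 0.510). The difference between the days in the LAMZ effect was −1.32 (standard error 0.24) and missed the threshold (limma adjusted p = 0.0606), which it passed in 4 of the 18 alternatives. The day 14 call was lost without day 14 control replicate 1, control replicate 2 or LAMZ replicate 2 (adjusted p 0.0707 to 0.114) and with no filter on low values (0.0504).

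In class II, Fmod (fibromodulin) and Lum (lumican), keratan sulfate proteins that bind the same region of type I collagen, were compared next. Fmod had an RPKM of 295 and 256 in control and 388 and 426 with LAMZ at day 7, and of 328 and 326 in control and 408 and 424 with LAMZ at day 14. The 4 LAMZ libraries lay between 388 and 426, above all 4 control libraries. Fmod rose with LAMZ at day 7 by 0.56 log2 (standard error 0.12, limma adjusted p = 0.0237, higher in 2 of 2 libraries). At day 14, the estimate of 0.35 missed the threshold (limma adjusted p = 0.0805), and it was −0.02 with libraries rescaled to the same sum, −0.00 with quantile normalization and 0.54 with median centring (limma adjusted p = 0.0128). It also passed the threshold with limma voom on recovered reads, at 0.35 (limma voom adjusted p = 0.0208). The day 7 call was lost without day 7 control replicate 2, LAMZ replicate 1 or LAMZ replicate 2 (adjusted p 0.0754 to 0.140), with the same sum (0.140), with quantile normalization (0.167) and with no filter (0.0898).

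Lum had an RPKM of 253 and 244 in control and 379.8 and 428 with LAMZ at day 7, and of 236 and 289.5 in control and 273 and 246 with LAMZ at day 14. The 2 day 7 LAMZ libraries stood above the other 6, which overlapped. The rise with LAMZ at day 7 was 0.70 log2 (standard error 0.14, limma adjusted p = 0.0174, higher in 2 of 2 libraries), and the fall from day 7 to day 14 in LAMZ-treated cells was −0.63 (limma adjusted p = 0.0231). At day 14 the LAMZ effect was −0.01 (limma adjusted p = 0.961), or 0.18 with median centring and −0.38 with the same sum (limma adjusted p = 0.342 and 0.0678), and the difference between the days, −0.71, missed the threshold (limma adjusted p = 0.155). Each of these calls rested on every library behind it. The day 7 call was lost without any 1 of the 4 day 7 libraries (adjusted p 0.0509 to 0.113), with the same sum (0.0817), with quantile normalization (0.0617) and with no filter (0.0640). The day call was lost without any 1 of the 4 LAMZ libraries (0.0725 to 0.148), with the same sum (0.101) and with no filter (0.0788).

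Prelp, a member with a basic, heparin-binding amino end that anchors basement membranes to collagen, had an RPKM of 111 and 109.7 in control and 118 and 134 with LAMZ at day 7. At day 14 it had 166 and 171 in control and 92.6 and 100.1 in LAMZ-treated cells. The day 14 control libraries were the highest of all and the day 14 LAMZ libraries the lowest. The fall with LAMZ at day 14 was −0.80 log2 (standard error 0.12, limma adjusted p = 0.0024, lower in 2 of 2 libraries) and was called in all 18 alternative settings. From day 7 to day 14, Prelp rose in control cells by 0.61 (limma adjusted p = 0.0305), whereas the estimate of −0.38 in LAMZ-treated cells missed the threshold (limma adjusted p = 0.0640). The difference between the days in the LAMZ effect was −0.99 (standard error 0.16) with an adjusted p of 0.0502, and it passed the threshold in 6 of the 18 alternatives. The day 7 effect was 0.19 (limma adjusted p = 0.337), and it was −0.12 with the same sum and −0.03 with quantile normalization. The rise in control cells was lost without any 1 of the 8 libraries (adjusted p 0.0583 to 0.128) and with no filter (0.0634). Prelp overlaps the antisense gene Gm15851, whose mean RPKM was 0.0387.

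Omd (osteomodulin or osteoadherin), a keratan sulfate protein of mineralized bone matrix that osteoblasts bind through an integrin, was the member whose level moved most. It had an RPKM of 9.08 and 8.09 in control and 27.5 and 21.2 with LAMZ at day 7, and of 17.6 and 17.1 in control and 11.4 and 12.7 with LAMZ at day 14. LAMZ libraries were above control libraries at day 7 and below them at day 14, without overlap on either day. The rise at day 7 was 1.39 log2 (standard error 0.15, limma adjusted p = 0.00103, higher in 2 of 2 libraries), the fall at day 14 was −0.50 (limma adjusted p = 0.0439, lower in 2 of 2 libraries), and the difference between the 2 effects was −1.89 (standard error 0.21, limma adjusted p = 0.0243). From day 7 to day 14, Omd rose by 0.94 in control cells (limma adjusted p = 0.0156) and fell by 0.95 in LAMZ-treated cells (limma adjusted p = 0.00611).

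The calls for Omd differed in how far they held. Those of the rise at day 7 and of the fall over time in LAMZ-treated cells were made in all 18 alternative settings. The day 14 call for Omd was lost without any 1 of the 4 day 14 libraries (adjusted p 0.102 to 0.190), with median centring (0.178), with quantile normalization (0.114), with no filter (0.0878) and without the mean-variance trend (0.0607). The rise over time in control cells was lost without any 1 of the 4 control libraries (0.0527 to 0.0998). The difference between the days passed the threshold in 10 of 18 alternatives, with adjusted p from 0.000321 to 0.122. It was lost without any 1 library other than day 7 control replicate 1 (0.0522 to 0.122) and with no filter (0.0778).

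In class III, Epyc (epiphycan), known from growth plate cartilage, had an RPKM of 9.53 and 8.68 in control and 12.1 and 16.2 with LAMZ at day 7, and of 7.78 and 8.46 in control and 10.2 and 9.20 with LAMZ at day 14. The day 7 LAMZ libraries were the highest, and LAMZ libraries lay above control libraries on both days. Epyc rose by 0.57 log2 at day 7 (standard error 0.15, limma adjusted p = 0.0460, higher in 2 of 2 libraries), and the day 14 estimate of 0.23 (limma adjusted p = 0.318) turned to −0.10 with the same sum. The day 7 call was lost without any 1 library other than day 7 LAMZ replicate 1 (adjusted p 0.0675 to 0.224), with the same sum (0.175), with no filter (0.110) and without the mean-variance trend (0.0635). In LAMZ-treated cells, the day estimate of −0.49 missed the threshold (limma adjusted p = 0.0677). Epyc overlaps Gm10754 on the opposite strand, whose mean RPKM was 0.0739.

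Ogn (osteoglycin or mimecan), first isolated from bone, had an RPKM of 95.9 and 80.2 in control and 84.9 and 103 with LAMZ at day 7, and of 116 and 114 in control and 58.7 and 45.2 with LAMZ at day 14. At day 7 the groups overlapped, and at day 14 the LAMZ libraries lay below every other library. The fall with LAMZ at day 14, −1.14 log2 (standard error 0.17, limma adjusted p = 0.00248, lower in 2 of 2 libraries), was the largest fall of the family with LAMZ and was called in all 18 alternative settings. The day 7 effect was 0.09 (limma adjusted p = 0.777), or −0.21 with the same sum. From day 7 to day 14, Ogn fell by 0.85 in LAMZ-treated cells (limma adjusted p = 0.0148). The estimate over time in control cells was above 0, at 0.39, and missed the threshold (limma adjusted p = 0.226). The difference between the days in the LAMZ effect was −1.23 (standard error 0.23, limma adjusted p = 0.0695), which passed the threshold in 4 of 18 alternatives. The day call in LAMZ-treated cells was lost without day 7 LAMZ replicate 2 or day 14 LAMZ replicate 2 (0.1004 and 0.112).

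The chromosome 13 neighbours whose promoters are printed above, Aspn, Omd and Ogn, had the 3 most negative estimates of the change of the LAMZ effect between the days (−1.32, −1.89 and −1.23), of which only that of Omd passed the threshold. All 3 lie inside the span of Cenpp, a kinetochore gene on the opposite strand (49464023 to 49652785), whose RPKM was 0.936 to 2.48, low beside all 3 members. Of the other tested genes within 100 kb of them, Ippk, Cenpp, Ecm2 and Nol8 did not pass the threshold on either day. Ecm2, a related leucine-rich matrix gene 11.7 kb before Aspn, had a log2 fold change of 0.21 at day 7 (limma adjusted p = 0.520) and −0.43 at day 14 (0.140). Iars, an aminoacyl-tRNA synthetase gene, rose on both days, by 0.72 and 0.90 (limma adjusted p = 0.00922 and 0.0020), at day 7 not without either LAMZ replicate of that day (0.0624 and 0.0688). Within the chromosome 10 cluster, Lum and Epyc rose at day 7 and Dcn did not pass the threshold, while at day 14 only Dcn passed it, as a fall.

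**Figure D3:**
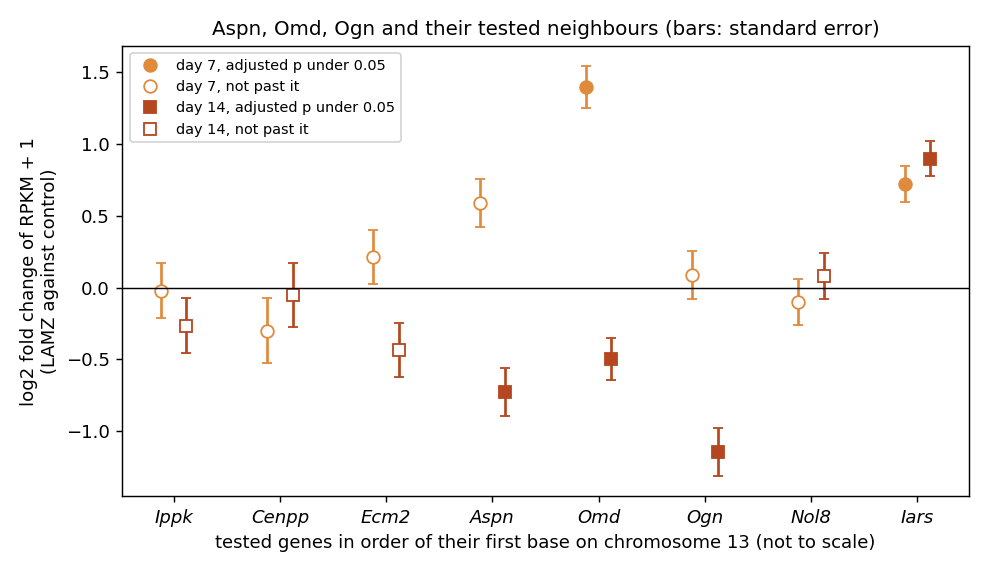
Log2 fold change of RPKM + 1 with LAMZ (y axis, bars: standard error from the 4-group fit) for Aspn, Omd, Ogn and the tested genes within 100 kb of them, ordered along chromosome 13 (x axis, not to scale), with circles for day 7, squares for day 14 and filled symbols where the limma adjusted p was under 0.05. Aspn, Omd and Ogn are filled below 0 at day 14, though that of Omd is lost with median centring and quantile normalization, and of the neighbours only Iars is filled.

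As a whole, the family took 0.668% and 0.682% of the summed RPKM of protein-coding genes in control cells at day 7 and 0.850% and 0.918% in LAMZ-treated cells. At day 14, it took 0.806% and 0.808% in control cells and 0.707% and 0.706% in LAMZ-treated cells. The LAMZ libraries were thus above the control libraries at day 7 and below them at day 14, a description with no test. Within the family sum, the share of Fmod was 22.1% to 23.9% in day 14 control and 30.1% and 32.1% in day 14 LAMZ libraries, and that of Bgn 21.5% and 22.9% against 26.1% and 27.5%. The share of Ogn was 8.49% and 7.71% against 4.33% and 3.42%, that of Prelp 12.1% and 11.6% against 6.83% and 7.58%, and that of Aspn 8.76% and 8.29% against 6.21% and 4.75%. At day 7, the share of Lum was higher with LAMZ, at 20.6% and 20.7% in control against 24.4% and 24.8%. That of Bgn was lower, at 20.3% and 24.4% in control against 18.8% and 19.9%, although its RPKM was above control in both LAMZ libraries. The share of Aspn overlapped at day 7. The shares of Fmod were higher, and those of Ogn and Prelp lower, with LAMZ at day 7 as well. That of Dcn was lower with LAMZ on both days, at 7.38% and 7.68% against 5.99% and 5.94% at day 7. At day 14, the Dcn share was 6.15% and 6.02% against 4.81% and 4.32%. A factor common to a whole library does not alter these shares.

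**Figure D4:**
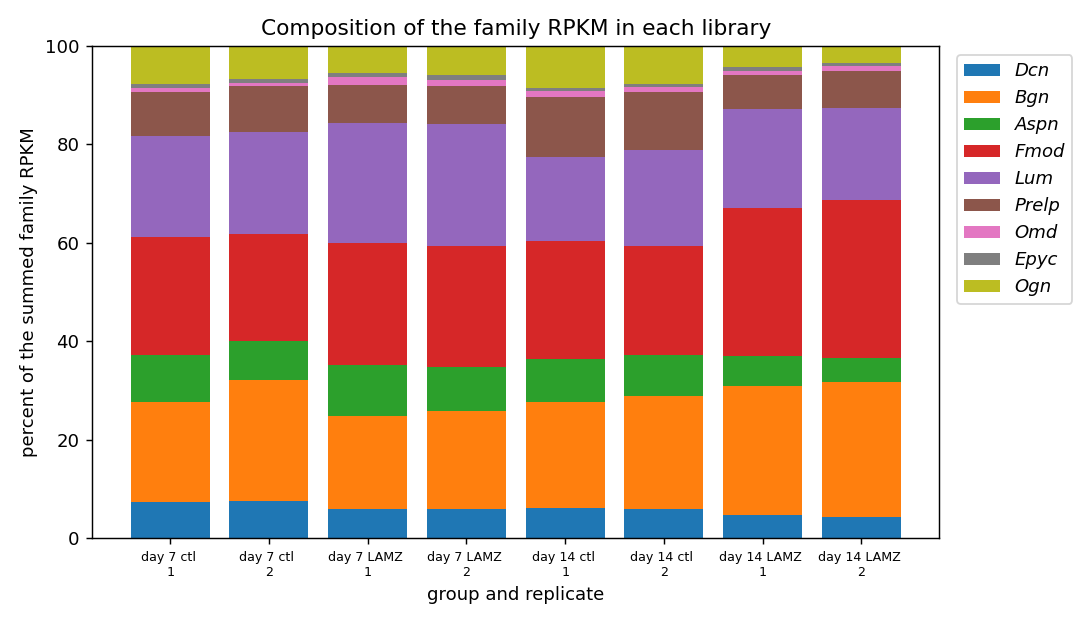
Percent of the summed family RPKM (y axis, 0 to 100) taken by each of the 9 tested members (colours) in each of the 8 libraries (x axis). At day 14, the Fmod and Bgn bands are wider in the LAMZ libraries (Fmod 30.1% and 32.1%) than in the control libraries (23.9% and 22.1%), and the Ogn band is narrower.

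Ratios within a library were compared for 3 pairs, averaged over the 2 days, by an exact two-sided permutation test (labels exchanged among the libraries of a day), whose smallest possible p is 0.0556, so no pair could pass 0.05. The log2 ratio of Omd to Ogn was 0.98 higher with LAMZ (1.30 at day 7 and 0.65 at day 14), with every LAMZ library above the control libraries of its day (exact permutation p = 0.0556, the smallest it can give, adjusted p = 0.167 over the 3 pairs). That of Bgn to Dcn was 0.41 higher (0.13 and 0.68, exact permutation p = 0.111, adjusted p = 0.167). At day 14 its values were 1.79 and 1.91 in control and 2.42 and 2.65 in LAMZ-treated cells. That of Fmod to Lum was 0.11 higher (−0.13 and 0.36, exact permutation p = 0.5, adjusted p = 0.5).

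How libraries are scaled to each other matters for the direction of the smaller changes. The RPKM of the 7SL RNA genes Rn7s1 and Rn7s6 made up 22.5% to 40.4% of the sum of a library. Their part was 32.3% and 35.7% in control against 40.4% and 37.2% with LAMZ at day 7. At day 14 it was 25.5% and 22.5% against 29.2% and 32.7%. It was thus higher with LAMZ on both days, a difference that rescaling to the same sum passes on to every gene. Rescaling every library to the same sum moved the median log2 fold change of all tested genes by −0.23 at day 7 and −0.28 at day 14. Over time, the median moved by 0.21 in control cells and 0.14 with LAMZ. Median centring moved it by 0.11 at day 7, 0.19 at day 14 and 0.10 over time in LAMZ-treated cells, and quantile normalization by 0.17 at day 14. As deposited, 33.9% of the genes called at day 7 and 30.3% at day 14 were higher with LAMZ, against 8.69% and 8.16% with the same sum, 53.5% and 56.3% with median centring, 45.7% and 47.9% with quantile normalization and 26.5% and 20.7% with the same sum over protein-coding genes, a setting chosen after seeing the data. The members' median minus that of all genes was 0.64 at day 7 and −0.35 at day 14 as deposited. It was 0.57 and −0.41 with the same sum, 0.64 and −0.35 with median centring, 0.25 and −0.40 with quantile normalization and 0.63 and −0.37 with the protein-coding sum. At day 7, the members called, all of them higher, were 1 with the same sum (beside 3592 of all 12514 genes), 2 with quantile normalization (1487), 5 with median centring (1602) and 5 with the protein-coding sum (1973). At day 14 they were 5 (beside 5796 of all genes), 4 (2674), 4 (2857) and 5 (3733) in the same order, all of them lower but for Fmod with median centring.

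**Figure D5:**
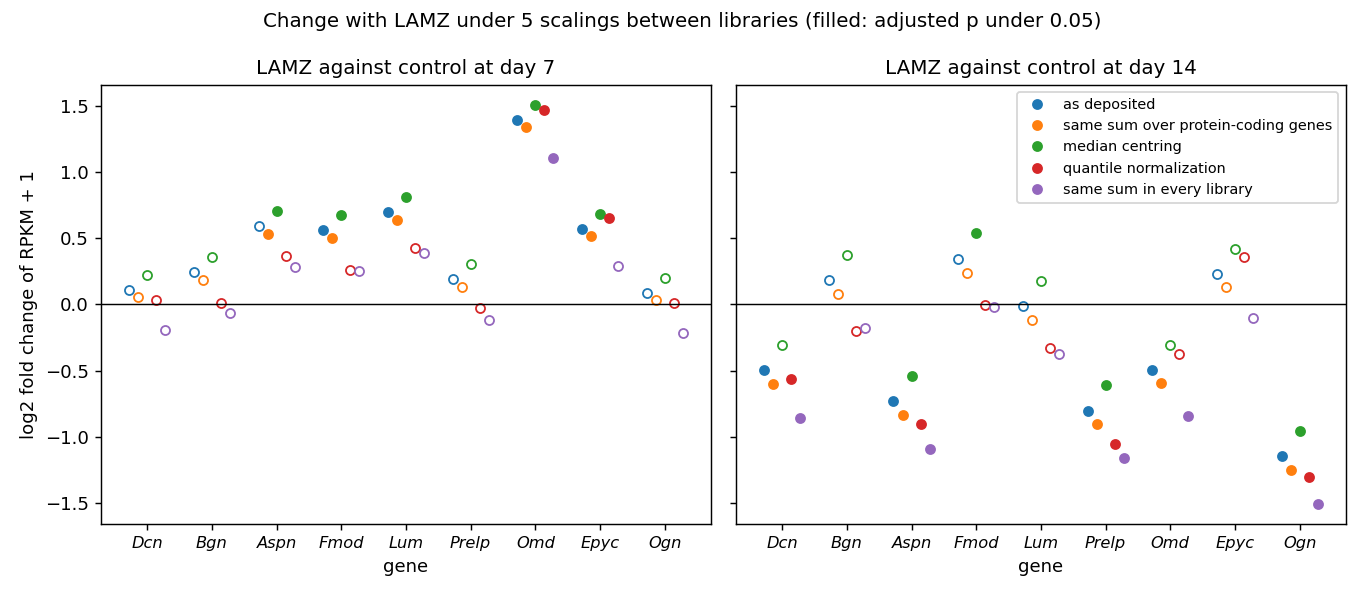
Log2 fold change of RPKM + 1 with LAMZ (y axis) for the 9 tested family genes (x axis) at day 7 (left) and day 14 (right) with the values as deposited and under 4 other scalings between libraries (colours), filled where the limma adjusted p was under 0.05. Omd at day 7 and Ogn, Prelp and Aspn at day 14 are filled under all 5, whereas Bgn at both days, Dcn, Prelp and Ogn at day 7, and Fmod, Lum and Epyc at day 14 have estimates on both sides of 0.

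Genes that act with the family were counted from lists, to be read beside all tested genes, of which 12.8% changed at day 7 (4.35% higher, 8.49% lower) and 23.0% at day 14 (6.96% higher, 16.0% lower), with medians of −0.08 and −0.15. Of the 8 other small leucine-rich proteoglycans or close relatives, 6 were tested, 0 changed at day 7, and 2 rose and 1 fell at day 14, with median log2 fold changes of 0.08 and 0.10. The most abundant were Podn and Tsku at a mean RPKM of 10.8 and 10.6. Podn (podocan) fell at day 14, from 16.4 ± 2.19 to 7.11 ± 0.736 RPKM (SD, n = 2), a log2 fold change of −1.10 (limma adjusted p = 0.00206, lower in 2 of 2 libraries), and its relative Podnl1 rose by 0.82 (limma adjusted p = 0.00432). Chad (chondroadherin) rose by 0.65 (limma adjusted p = 0.0344), a call lost without any 1 library other than the day 7 control ones (0.0555 to 0.189) and made in 7 of the 18 alternatives. The estimates of Tsku (tsukushi), −0.04 and 0.23, missed the threshold.

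The chains of the family are built by the linker and chondroitin or dermatan sulfate enzymes, of which all 23 were tested. At day 7, 5 rose and 2 fell, and at day 14, 4 rose and 5 fell, with medians of −0.02 and −0.08 (all tested genes: 12.8% called at day 7 and 23.0% at day 14, medians −0.08 and −0.15). Xylt1, a xylosyltransferase that starts the chain, rose from 2.54 ± 0.679 to 7.48 ± 1.21 RPKM at day 7 and from 2.87 ± 0.259 to 7.85 ± 0.424 at day 14 (SD, n = 2), log2 fold changes of 1.27 and 1.20 (limma adjusted p = 0.00296 and 0.00212). Chst11, which sulfates chondroitin at the 4-position, rose by 1.28 at day 7 (limma adjusted p = 0.00102), and its day 14 estimate of 0.34 missed the threshold. Chsy1, a chondroitin synthase and the most abundant of the list at a mean RPKM of 37.6, rose by 0.66 and 0.73 (limma adjusted p = 0.0149 and 0.00567). The Chsy1 call at day 7 was lost without any 1 of the 4 day 7 libraries (0.0514 to 0.102), and those of both days with the same sum (0.0901 and 0.0581). Csgalnact1, which adds the first N-acetylgalactosamine, fell (log2 fold changes of −0.87 and −0.93, limma adjusted p = 0.00777 and 0.00317), at day 7 not without LAMZ replicate 2 of that day (0.0522). The sulfotransferase Chst7 fell (log2 fold changes of −0.81 and −0.94, limma adjusted p = 0.0174 and 0.00538), at day 7 not without control replicate 1 or LAMZ replicate 1 of that day (0.0871 to 0.118) or with no filter (0.0618). Chpf2, second in level at 29.9, had −0.15 and −0.08 and missed the threshold.

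Of the 9 keratan chain and tyrosine sulfation enzymes, which modify class II members, 8 were tested. At day 7, 0 rose and 2 fell, and at day 14, 1 rose and 3 fell, with medians of 0.09 and −0.56 (all tested genes: 12.8% called at day 7 and 23.0% at day 14, medians −0.08 and −0.15). B4galt1, a galactosyltransferase with the highest mean RPKM of the list (24.5), fell by 0.59 at day 14 (limma adjusted p = 0.00666), a call lost without day 14 LAMZ replicate 2 (0.0523). B4galt4 fell (log2 fold changes of −1.02 at day 7 and −1.33 at day 14, limma adjusted p = 0.0425 and 0.00937), at day 7 not without any 1 of the day 7 or day 14 control libraries or of the day 7 LAMZ libraries (0.0697 to 0.228, called in 5 of 17 alternatives), and at day 14 not without day 14 control replicate 2 (0.0580). Chst2, a sulfotransferase, fell (log2 fold changes of −0.94 and −0.88, limma adjusted p = 0.0151 and 0.0115), at day 7 not without control replicate 1 or LAMZ replicate 1 of that day (0.0644 to 0.112) or with no filter (0.0553), and at day 14 not without control replicate 1, control replicate 2 or LAMZ replicate 2 of that day (0.050002 to 0.0759). Of the tyrosine sulfotransferases, Tpst2 rose by 0.61 at day 14 (limma adjusted p = 0.00742), a call lost without day 14 LAMZ replicate 2 (0.0514) and with the same sum (0.122), and Tpst1 (mean RPKM 23.3) missed the threshold at 0.42 and −0.21.

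Among 12 proteases and enhancers that process or cleave the family, 11 were tested. At day 7, 0 rose and 3 fell, and at day 14, 2 rose and 4 fell, with medians of −0.33 and −0.20 (all tested genes: 12.8% called at day 7 and 23.0% at day 14, medians −0.08 and −0.15). Adamts5, an aggrecanase, fell from 34.7 ± 2.65 to 7.81 ± 0.0236 RPKM at day 7 and from 32.8 ± 1.67 to 6.92 ± 1.51 at day 14 (SD, n = 2), log2 fold changes of −2.02 and −2.11 (limma adjusted p = 0.000222 and 8.01e-05). Tll1, a tolloid protease related to Bmp1, which cleaves the propeptide of biglycan, fell (log2 fold changes of −1.64 and −1.84, limma adjusted p = 0.000805 and 0.000231). Mmp13, a collagenase, rose by 1.28 at day 14, from 137 ± 45.3 to 326 ± 38.5 RPKM (limma adjusted p = 0.0052), with a day 7 estimate of 0.56 (limma adjusted p = 0.142), and Pcolce2 rose by 1.02 at day 14 (limma adjusted p = 0.00211). Mmp2 had the highest mean RPKM of the list (215) and missed the threshold at 0.13 and −0.13. Pcolce, an enhancer of procollagen processing at a mean RPKM of 182, fell by 0.60 at day 14 (limma adjusted p = 0.00685), a call lost without day 14 LAMZ replicate 1 (0.0541).

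Of the 19 growth factors and receptors bound by the family, 17 were tested. At day 7, 3 rose and 2 fell, and at day 14, 3 rose and 6 fell, with medians of 0.05 and −0.43 (all tested genes: 12.8% called at day 7 and 23.0% at day 14, medians −0.08 and −0.15). Tgfb1, a ligand that decorin and biglycan bind, rose from 2.29 ± 0.209 to 6.81 ± 0.739 RPKM at day 7 and from 6.05 ± 0.631 to 16.4 ± 1.42 at day 14 (SD, n = 2), log2 fold changes of 1.24 and 1.30 (limma adjusted p = 0.00120 and 0.000501). Ctgf, a matricellular factor and the most abundant of the list at a mean RPKM of 104, rose by 1.43 at day 14 (limma adjusted p = 0.000689), with a day 7 estimate of 0.47 (limma adjusted p = 0.0909). Lrp1, an endocytic receptor of decorin at a mean RPKM of 54.2, fell (log2 fold changes of −0.85 and −0.55, limma adjusted p = 0.0117 and 0.0375), at day 7 not without control replicate 2 or either LAMZ replicate of that day (0.0515 to 0.0834), and at day 14 not without any 1 of 5 libraries, namely both day 7 LAMZ, both day 14 control and day 14 LAMZ replicate 1 (0.0599 to 0.200, called in 9 of 18 alternatives). Tlr2, an innate receptor of biglycan, fell by 1.34 at day 14 (limma adjusted p = 0.00942), not without day 14 control replicate 2 or LAMZ replicate 2 (0.0690 and 0.0700). Its co-receptor Cd14, which is also among the macrophage markers, fell (log2 fold changes of −1.23 and −2.81, limma adjusted p = 0.0251 and 0.000374), at day 7 not without control replicate 2 or either LAMZ replicate of that day (0.0693 to 0.144, called in 11 of 17 alternatives).

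All 16 fibril collagens and partners were tested, of which 5 rose and 2 fell at day 7 and 7 rose and 4 fell at day 14, with medians of 0.09 and 0.19 (all tested genes: 12.8% called at day 7 and 23.0% at day 14, medians −0.08 and −0.15). Col1a1, the main collagen of bone and the gene with the highest mean RPKM of the list (6736), rose by 0.55 at day 14 (limma adjusted p = 0.0460). That call was made in 6 of the 18 alternatives and lost without any 1 library other than the day 7 control ones (0.0783 to 0.245), and the estimate turned to −0.22 with quantile normalization. Col1a2 missed the threshold at −0.06 and 0.39. Over 17 alternatives, its estimates ran from −0.83 to 0.05 at day 7 and from −0.00 to 0.58 at day 14. It passed the threshold in 1 of them on each day. Col5a1, which limits fibril width, rose by 1.06 at day 14 (limma adjusted p = 0.000951), and Col2a1, the collagen of cartilage, rose by 1.05 and 1.61 (limma adjusted p = 0.0112 and 0.000928), at day 7 not without either LAMZ replicate of that day (0.0689 and 0.0757). Fbn1, the gene of fibrillin-1, fell from 77.9 ± 6.03 to 19.3 ± 0.439 RPKM at day 7 and from 69.0 ± 6.04 to 10.6 ± 0.0798 at day 14 (SD, n = 2), log2 fold changes of −1.96 and −2.60 (limma adjusted p = 8.97e-05 and 9.97e-06). Col14a1, a fibril-associated collagen to which decorin binds, fell (log2 fold changes of −1.13 and −2.54, limma adjusted p = 0.000729 and 8.55e-06).

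Of 22 other proteoglycans, 19 were tested, and 5 rose and 4 fell on each day, with medians of −0.05 and 0.08 (all tested genes: 12.8% called at day 7 and 23.0% at day 14, medians −0.08 and −0.15). Gpc1, a membrane glypican with the highest mean RPKM of the list (191), rose by 1.07 and 1.67 (limma adjusted p = 0.00126 and 8.0e-05). Acan, the aggregating proteoglycan of cartilage, and Cspg4, a membrane chondroitin sulfate proteoglycan, had the largest rises, which for Cspg4 came to 1.33 and 1.77 (limma adjusted p = 0.00484 and 0.000763). Tgfbr3, the co-receptor betaglycan, fell on both days (a log2 fold change of −1.14 at day 7, limma adjusted p = 0.00315 and 0.00314). Esm1 fell (log2 fold changes of −1.13 and −1.78, limma adjusted p = 0.0474 and 0.00506), at day 7 not without any 1 library other than day 7 control replicate 1 (0.0764 to 0.234), a call made in 6 of the 18 alternatives. The day 7 estimate of Esm1 ran from −1.67 to −0.60 when 1 library was left out. Hspg2, which encodes perlecan at a mean RPKM of 97.2, missed the threshold at −0.31 and 0.04. For the genes of these lists, the test of the change of the LAMZ effect between the days is not reported here.

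Marker lists of cell types moved with LAMZ as well, and their part in the results for the family was not tested. All 10 osteoblast markers were tested, and 7 rose and 0 fell on each day, beside 12.8% of all tested genes called at day 7 and 23.0% at day 14. Their summed RPKM was 7180.3 and 8843 in control and 10928 and 10357 with LAMZ at day 7, and 10740.3 and 10269 against 16511 and 18310.1 at day 14, with Col1a1 the most abundant. Col1a1 and Col1a2 made up most of each sum, at 4354 and 2596 RPKM in day 7 control replicate 1, for instance. Col1a2 missed the threshold on both days, and the day 14 estimate of Col1a1 turned to −0.22 with quantile normalization. All of the 11 chondrocyte markers were tested, of which 7 rose and 0 fell at day 7 and 9 rose and 1 fell at day 14. Their sum was 307 and 242 in control and 576 and 586 with LAMZ at day 7, and 230.1 and 232 against 564 and 665 at day 14, with Col2a1 the most abundant. The marker that fell at day 14 was Sox9, at an RPKM of 7.88 and 7.17 in control against 3.98 and 4.805 with LAMZ. At day 7 the groups of Sox9 overlapped, at 9.43 and 6.84 in control against 7.43 and 6.68 with LAMZ. The sum thus does not describe every marker of this list.

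The 14 macrophage markers were all tested, and 0 rose on either day while 12 fell at day 7 and 13 at day 14, with medians of −3.42 and −4.50. Their summed RPKM was 466 and 607 in control and 9.43 and 7.65 with LAMZ at day 7, and 1135 and 1178 against 7.36 and 7.99 at day 14. In control cells the sum was 0.253% to 0.668% of the RPKM of protein-coding genes, in LAMZ-treated cells 0.0038% to 0.0052%. Lyz2 was the most abundant. The defining markers C1qa, C1qb, C1qc, Tyrobp and Laptm5 were at an RPKM of 0 in all 4 LAMZ libraries and at 6.65 to 97.4 in the 4 control libraries, and 0 of the 14 were at 0 in all 8. The labels name no macrophages in these cultures.

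Of 3 tenocyte markers, 0 changed at day 7 and 1 fell at day 14, and their sum, mostly Tnmd, was 202 and 139.5 in control and 105 and 118 with LAMZ at day 7 and 169 and 152 against 76.7 and 52.2 at day 14. Of 6 smooth muscle and pericyte markers, 5 were tested, 1 rose and 1 fell at day 7, and 4 rose and 1 fell at day 14. Their sum, led by Acta2, was 1031 and 841 in control and 1124 and 1402 with LAMZ at day 7 and 749 and 911 against 1671 and 1575 at day 14. Of 7 adipocyte markers, 4 were tested, with 0 changes at day 7 and 2 falls at day 14, a count that varied with the library left out. Their sum was 11.6 and 4.05 against 2.75 and 2.13 at day 7 and 15.8 and 77.1 against 4.38 and 4.36 at day 14, so that day 14 control replicate 2 stood apart in this list. Fabp4 had the highest mean of the list, but Pparg lay above it in the LAMZ libraries and in day 7 control replicate 2. Of 5 endothelial markers, 1 (Tek, also the highest by mean) was tested and fell on both days (log2 fold changes of −1.14 and −0.91, limma adjusted p = 0.0153 and 0.0217). At day 7 that call was lost without control replicate 1 or either LAMZ replicate of that day (0.0704 to 0.0771), and at day 14 without any 1 of the 4 day 14 libraries (0.0756 to 0.105) and with quantile normalization (0.0588). The endothelial sums ran from 0.753 to 2.82, and Cdh5 lay above Tek in both day 7 LAMZ libraries and in day 14 LAMZ replicate 1. Of the 4 skeletal muscle markers, 0 were tested, Myog was the highest by mean, and the sums ran from 0.0991 to 0.673. No marker was at 0 in all 8 libraries, but 1 adipocyte, 1 smooth muscle, 3 endothelial and 4 skeletal muscle markers stayed under an RPKM of 1 in all of them.

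Genes with a pattern like that of the 4 members with the widest range of group means were searched for among 5603 tested genes with a mean RPKM of at least 5, by Pearson's r of log2(RPKM + 1) over the same 8 libraries, as a description. The 3 highest r for each member are given, picked for their size, and no background was computed for them. Most like Omd were Zfp395 (r = 0.943), Agtr1a (0.940) and Rasa3 (0.913). Zfp395, for instance, had an RPKM of 3.76 and 3.35 in control and 11.2 and 8.62 with LAMZ at day 7, and 5.99 and 7.32 against 6.49 and 5.33 at day 14, where its groups overlapped. Most like Ogn were Tspan3 (0.983), Vamp3 (0.969) and Cyp26b1 (0.960). Cyp26b1, a retinoic acid hydroxylase, had 11.3 and 10.0 in control and 9.90 and 11.9 with LAMZ at day 7, and 19.0 and 18.9 against 5.80 and 4.98 at day 14, low in the same 2 libraries as Ogn. Most like Aspn were Zc3h11a (0.958), Sub1 (0.951) and Nsmce1 (0.947), and most like Prelp were Steap3 (0.962), Gsn (0.950) and Rnf181 (0.943). Gsn, which encodes the actin-severing protein gelsolin, had 146 and 154 in control and 80.8 and 93.8 with LAMZ at day 14, beside 111.8 to 121 at day 7.

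Among the members themselves, the same measure gave the highest r for Lum and Epyc (0.914), for Dcn and Aspn (0.886) and for Dcn and Ogn (0.856), and the lowest for Dcn and Bgn (−0.537). These pairs share the libraries and their groups, so r describes the group pattern more than separate events. In the plot of RPKM by library, Lum and Epyc were highest at day 7 with LAMZ, while Dcn, Aspn and Ogn were lowest at day 14 with LAMZ.

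Several limits apply. With 2 libraries in each group, most calls for the family were lost without at least 1 of the libraries, and those kept throughout are the rise of Omd at day 7, the falls of Ogn and Prelp at day 14 and the falls of Omd and Aspn over time in LAMZ-treated cells. Smaller changes depend on how libraries are scaled to each other, which these values cannot settle. Only RNA was measured, so the proteins, their chains and their place in the matrix were not analysed here. Cell types were not separated, the cell source is named in different ways, and untreated cells outside the osteogenic medium were not used here.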

How the data were processed

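The authors sequenced total RNA of 8 libraries on an Ion Proton, assigned reads to genes with CLC Genomics Workbench (genome build mm10, per the submitters' processing notes) and deposited RPKM values. In each file, 4 entries whose date-like symbols occur more than once were left out. All genes were fitted in limma 3.58.1 (R 4.3.3) on log2(RPKM + 1), with the 4 groups in one model, empirical Bayes with a mean-variance trend and Benjamini-Hochberg adjustment. Reads were recovered from RPKM with GENCODE M21 gene lengths. Of the tested genes, 73.2% came within a tolerance of 0.02 of whole reads in all libraries. Alternatives were pseudocounts of 0.1 and 5, no filter, other scalings between libraries, a replicate block, no trend and leaving out each library. Rescaling over protein-coding genes and limma voom on recovered reads were chosen after seeing the data. In each list, the 2 genes with the highest mean RPKM and among those past the threshold the 2 that rose most and the 2 that fell most are named, and the 3 genes most like each of 4 members. The neighbouring genes shown, and the genes of like pattern whose values are printed, were chosen after their values were seen. Members and lists were chosen with earlier results of these data known.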

Additional observations from a re-analysis of the deposited data

Results flagged for a closer look

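The effect of LAMZ on Omd differed between the days by −1.89 log2, a rise at day 7 and a fall at day 14, and passed the limma test of this difference, which is what singled it out. No other member passed it. The call was lost in 8 of the 18 alternatives, and the cause of the difference was not tested.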

How the results depend on the processing

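Of the calls for the family, those of Omd at day 7, Ogn and Prelp at day 14, and Omd and Aspn over time in LAMZ-treated cells were made in all 18 alternatives. With LAMZ at day 7, 951 genes were called with no filter and 3592 with the same sum in every library, against 1607 as deposited, and the members called were 1 with no filter, 1 with the same sum and 2 with quantile normalization, against 4. At day 14, 5796 genes were called with the same sum, against 2878, and 3 members with no filter, against 5. Over time in control cells, 203 genes were called with no filter and 1135 with the same sum, against 608, and 1 and 4 members, against 2. Over time in LAMZ-treated cells, 1091 genes were called with no filter, against 1797. The log2 fold change of Col1a1 at day 14 turned to −0.22 with quantile normalization. With no filter, 29944 genes were tested, so that adjustment is heavier, and for the other changes the cause was not tested.

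For the change of the LAMZ effect between the days, 78 genes were called as deposited, 34 with a pseudocount of 0.1, 166 with a pseudocount of 5, 0 with no filter (2931 at an unadjusted p under 0.05), 17 with the replicate block, 30 with no mean-variance trend, 101 with the same sum in every library, 110 with median centring, 113 with quantile normalization, 121 with the same sum over protein-coding genes and 276 with voom on recovered reads, which tested 9159 genes and not 12514. The members called were 1 as deposited, 2 with a pseudocount of 5, 0 with no filter, 4 with the same sum in every library, 2 with median centring, 4 with quantile normalization, 4 with the protein-coding sum and 6 with voom. The cause was not tested.

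Leaving out 1 library gave 527 to 1383 genes and 1 to 3 members at day 7, 1512 to 3087 genes and 2 to 5 members at day 14, 69 to 453 genes and 0 to 1 members over time in control cells, 488 to 1890 genes and 2 to 5 members over time in LAMZ-treated cells, and 0 to 21 genes and 0 to 1 members for the change between the days. Fewer libraries leave fewer degrees of freedom. The log2 ratio of Omd to Ogn stayed between 0.82 and 1.13, that of Bgn to Dcn between 0.35 and 0.46 and that of Fmod to Lum between 0.04 and 0.19.

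The labels give every group the replicate numbers 1 and 2 without saying that a number marks a shared culture or day, and deviations of same-numbered libraries correlated at −0.0166 at day 7 and 0.0158 at day 14. With the replicate number as a block, 1376 genes were called at day 7, 2700 at day 14, 432 over time in control cells, 1548 over time in LAMZ-treated cells and 17 for the change between the days. Among members, the block ended the calls of Epyc at day 7 (limma adjusted p = 0.0652) and Omd at day 14 (0.0539) and added that of Aspn at day 7 (0.0485).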
